A study of Mus musculus with 72 samples.

Results

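The transcription factor genes Pou5f1, Sox2 and Nanog were followed by symbol through 72 RNA libraries of mouse embryonic stem cells. They were 3 of 51826 genes with read counts. The cells were of the E14TG2a line, grown with leukemia inhibitory factor and inhibitors of MEK and GSK3 (2i + LIF). Every culture was labeled with 4-thiouridine (4sU), a uridine analog that is built into newly transcribed RNA and read as C instead of T after alkylation (SLAM-seq). After labeling, each of 18 cultures was lysed in buffers with the translation inhibitor cycloheximide and split into a nuclear, a cytosolic and a membrane fraction, and a sample of the whole cells was kept. Poly(A) RNA of these 4 preparations was sequenced. No untreated group and no other genotype entered the comparisons, so that labeling and cycloheximide were shared by all groups.

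There were 9 labeling conditions of 2 replicates each. Replicates 1 and 2 were labeled for 15, 20 and 30 min. Replicates 3 and 4 gave times of 20, 40, 60 and 120 min, and replicates 5 and 6 times of 60 and 120 min. The dose of 4sU was 500 µM for 15 to 40 min and, by the labels, 100 µM for 60 and 120 min. The labels and the protocol text differ in the dose of the longer labelings of replicates 3 and 4. The conversion rate in new RNA at 60 min was between 5.83% and 8.29% in replicates 3 and 4 and between 2.38% and 3.99% in replicates 5 and 6. The effect of dose was not tested. The 8 libraries of 120 min of replicates 3 and 4 were left out of the labeling results, which rest on 64 libraries of 16 cultures. They were kept in the tests of levels.

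POU5F1 (also called OCT4) is a POU homeodomain protein, SOX2 an HMG-box protein that binds DNA beside it, and NANOG a homeodomain protein. The 3 factors hold mouse embryonic stem cells in the undifferentiated state, occupy many enhancers together and act on each other's genes. An mRNA is spliced and polyadenylated in the nucleus, exported, and translated in the cytosol or at the endoplasmic reticulum before it decays, and at steady level the rate at which labeled copies replace unlabeled ones in a compartment depends on how long the mRNA stays there and in the compartments before it.

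On the GRCm38 build, Pou5f1 (ENSMUSG00000024406) lies on the plus strand at chr17:35506018-35510772 and Nanog (ENSMUSG00000012396) on the plus strand at chr6:122707489-122714633. Both have introns. Sox2 (ENSMUSG00000074637) has a single exon, at chr3:34650405-34652461 on the plus strand, and gives no intronic reads of its own. It lies within the span of the noncoding gene Sox2ot (ENSMUSG00000105265, chr3:34104270-34682619) on the same strand. Sox2ot was low, with mean levels between 0.458 and 1.22 TPM (counts per length, scaled to the same sum in every library) in the 4 preparations. Nanog and Pou5f1 have processed pseudogenes in the mouse genome, and reads shared with these cannot be told apart here.

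The 3′ UTRs of these mRNAs are shown around an AU-rich heptamer, because AU-rich elements are known from short-lived mRNAs, and around the last polyadenylation hexamer, which marks the end of the transcript. The sequences were read on the plus strand from the Gencode M21 transcripts (GRCm38), 5′ to 3′, with the motif in capitals. The windows lie in the last exon at chr17:35510737-35510765 for Pou5f1, at chr3:34651822-34651850 and chr3:34652422-34652450 for Sox2, and at chr6:122713630-122713658 and chr6:122714599-122714627 for Nanog.
Pou5f1, AATAAA: ttttgttcttaAATAAAgactgggacaca
Sox2, TATTTAT: cttttgtacagTATTTATcgagataaaca
Sox2, AATAAA: agtttgagataAATAAAtttttgaaatat
Nanog, TATTTAT: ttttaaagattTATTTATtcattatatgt
Nanog, AATAAA: agtttaaacaaAATAAAacactaatttta

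The letters ATTTA, searched on the transcript strand with overlaps allowed, occurred 0 times in the 221 bases of the Pou5f1 3′ UTR, 4 times in the 1086 bases of Sox2 and 3 times in the 1078 bases of Nanog. Of all 3′ UTRs at least as long, cut to the same length, 25.2%, 75.7% and 75.4% held ATTTA. The heptamer TATTTAT, which contains ATTTA, occurred 0, 1 and 1 times, against 4.88%, 24.6% and 24.5% of 3′ UTRs of the same length. The hexamer AATAAA occurred 1, 1 and 3 times, and 12.7%, 46.8% and 46.7% of 3′ UTRs held it within these lengths. Longer 3′ UTRs were cut at their 3′ end, where the polyadenylation hexamer lies, and those of the 3 genes were searched whole. These percentages are therefore not the share of 3′ UTRs with the hexamer. The matches are a description of these letters.

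Libraries held from 13185351 to 52975732 reads on genes. Replicate libraries differed far beyond sampling noise, with a chi-square per gene between 4.57 and 274.8, so that no library was a copy of another. Markers of the labelled cell type were present in whole cells, at means of 852 TPM for Zfp42, 307 for Esrrb, 283 for Klf4, 142 for Tfcp2l1 and 5558 for Dppa5a. Of 14 markers of primed, lineage or neural cells, Nes had the highest mean at 12.3 and the other 13 were at or below 4.53. All 4 nuclear long noncoding RNAs examined were called higher in the nucleus than in the cytosol, by log2 fold changes of 5.22 for Kcnq1ot1, 2.53 for Meg3 and 2.41 for Malat1, with Neat1 the least.

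Whole-cell libraries of replicate 6 went against their labels. The T2C share of T positions in Sox2 was 3.07% in the library labelled 60 min and 1.60% in the library labelled 120 min, whereas in replicate 5 it was 1.64% at 60 min and 3.08% at 120 min. The other fractions of replicate 6 did not show this order, and results in whole cells are given with and without these 2 libraries. The nuclear library of replicate 3 at 20 min stood high for all 3 genes, with shares of new RNA of 0.0705 in Pou5f1, 0.461 in Sox2 and 0.465 in Nanog.

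The first question was how high the 3 mRNAs stood within each preparation. TPM is scaled to the same sum in every library, and the paper estimates that the cytosol holds the least mRNA of the fractions. A higher cytosolic TPM therefore does not mean a larger amount there. Pou5f1 and Nanog had higher TPM in the cytosol than in the nucleus in 18 of 18 cultures and Sox2 in 15 of 18, and Pou5f1 had the most uneven TPM of the 3. Levels in TPM ranged in the cytosol from 1724 over a median of 2295 to 3044 for Pou5f1, and in the nucleus from 644 over 1001 to 1278. The cytosolic and nuclear Pou5f1 levels did not overlap. How many of all genes have levels that do not overlap was not counted. In the test described below, 67.6% of the genes tested were called between these fractions.

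Nanog ranged from 653 over a median of 1022 to 1779 TPM in the cytosol and from 449 over 710 to 1028 in the nucleus. Sox2 ranged from 285 over 494 to 593 TPM in the cytosol and from 184 over 391 to 576 in the nucleus. For these 2 genes the groups overlapped. Within cultures, Sox2 TPM was higher in the nucleus in replicate 4 at 20 min and in replicate 3 at 60 and 120 min. Pou5f1 was between the 30th and the 50th most abundant gene of its cytosolic libraries, Nanog between the 78th and the 173rd, and Sox2 between the 202nd and the 400th.

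In membrane libraries the levels were 1304 ± 382 TPM for Pou5f1, 637 ± 268 for Nanog and 281 ± 73.4 for Sox2 (SD, n = 18). In whole cells they were 1293 ± 391 for Pou5f1, 793 ± 301 for Nanog and 350 ± 102 for Sox2 (SD, n = 18), and without replicate 6 they were 1272 ± 411, 772 ± 314 and 353 ± 108 (SD, n = 16). Pou5f1 was above Nanog and Nanog above Sox2 in the mean of each of the 4 preparations. In the nucleus, where the means were 979 ± 159 for Pou5f1, 710 ± 163 for Nanog and 393 ± 107 for Sox2 (SD, n = 18), neighbours in this order overlapped in their ranges.

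Replicate sets differed, and not alike for the 3 genes. In the cytosol Nanog was at 1516 ± 178 TPM in replicates 3 and 4 (n = 8), at 761 ± 90.4 in replicates 1 and 2 (n = 6) and at 978 ± 70.0 in replicates 5 and 6 (n = 4). Cytosolic Pou5f1 was also highest in replicates 3 and 4, at 2881 ± 130 TPM, against 2077 ± 114 and 1981 ± 281. Sox2 was at 487 ± 70.7 TPM in replicates 3 and 4, at 518 ± 27.8 in replicates 1 and 2, and lowest in replicates 5 and 6 at 315 ± 30.9. These replicate sets also differ in labeling time, so that set and time cannot be told apart except within a set.

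**Figure D1:**
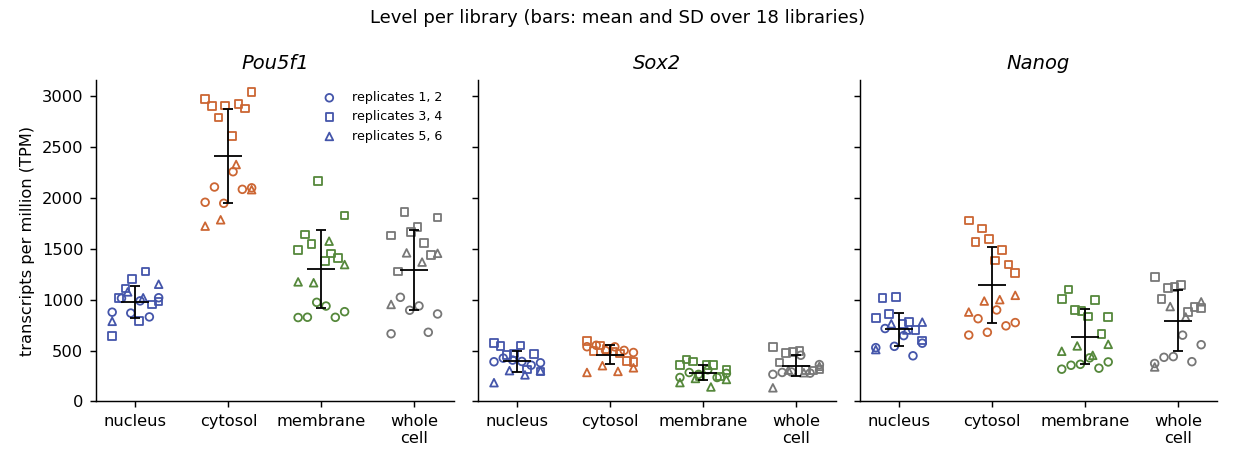
TPM (vertical axis) of Pou5f1, Sox2 and Nanog in 18 libraries of each preparation (horizontal axis), with symbols for the replicate sets and bars for the mean and SD. Pou5f1 is at 1724 to 3044 in the cytosol and at 644 to 1278 in the nucleus, and replicates 3 and 4 are the upper group of cytosolic Nanog.

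Within each culture, the ratio of nuclear to cytosolic CPM (counts scaled to equal library totals) was 0.376 ± 0.0958 for Pou5f1, 0.580 ± 0.117 for Nanog and 0.757 ± 0.101 for Sox2 (SD, n = 18). It was below 1 in all 18 cultures for each gene, with ranges of 0.188 to 0.557, 0.399 to 0.764 and 0.615 to 0.937. The median of 14814 genes was 1.20. Pou5f1 lay at the 0.992th percentile of these genes, Nanog at the 9.77th and Sox2 at the 22.9th. Libraries of equal depth do not give equal RNA per cell, so that these ratios order genes and say nothing of the amount of RNA in a compartment.

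edgeR's quasi-likelihood test over 18902 genes with trimmed-mean (TMM) scaling called all 3 genes lower in the nucleus than in the cytosol (a call needed an adjusted p below 0.05 and a log2 change of more than 0.5 in size). In this comparison 67.6% of the genes tested were called, 30.2% as lower and 37.4% as higher, so that a call by itself was common. The log2 fold change was -1.80 for Pou5f1 (SE 0.068, edgeR adjusted p = 1.43e-28), -1.17 for Nanog (SE 0.045, edgeR adjusted p = 3.63e-28) and -0.76 for Sox2 (SE 0.060, edgeR adjusted p = 2.44e-16). The Sox2 value was -0.41 with library totals only and -0.48 without replicate 2, and then no longer passed. Of all genes called, 7068 were higher and 5709 lower with TMM, 7912 were higher and 4535 lower with DESeq2 size factors, and 8688 were higher and 3594 lower with library totals.

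The scaling moved all genes together. The median nuclear against cytosolic change of all genes was 0.07 with TMM, 0.26 with DESeq2 size factors and 0.42 with library totals, and the changes were therefore also taken relative to the median gene. Over 13 settings of scaling, filter, tool and left-out replicates, the nuclear against cytosolic difference was then between -2.08 and -1.76 for Pou5f1, between -1.40 and -1.15 for Nanog and between -0.92 and -0.83 for Sox2. Each was lower than the median gene in every setting run.

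In the membrane fraction, composed mostly of endoplasmic reticulum and mitochondria, the 3 mRNAs of these nuclear proteins were at 0.583 ± 0.115 (Pou5f1), 0.588 ± 0.0728 (Nanog) and 0.666 ± 0.111 (Sox2) of their cytosolic CPM (SD, n = 18). No culture had a ratio above 1, and the median gene was at 0.770. The edgeR log2 fold changes were -0.50, -0.48 and -0.30, and none passed the threshold on fold change, in a comparison with 35.6% of genes called, 11.5% as lower and 24.1% as higher (2183 and 4554 genes, and 7491 and 3983 with library totals). Pou5f1 and Nanog lie at that threshold. Pou5f1 passed it with the replicate block (-0.51) and without replicate 1, 3, 4 or 5 (-0.55, -0.62, -0.69 and -0.52), and Nanog without replicate 1, 3 or 4 (-0.52, -0.59 and -0.68).

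Against the nucleus, membrane Pou5f1 was 1.66-fold in CPM and above 1 in 18 of 18 cultures, Nanog was 1.07-fold and above 1 in 8, and Sox2 was 0.888-fold and above 1 in 3. edgeR called Pou5f1 (1.30) and Nanog (0.69) higher on the log2 scale and not Sox2 (0.46), in a comparison that called 61.5% of genes, 36.9% as higher and 24.7% as lower (6968 and 4665 genes, 5596 and 5929 with DESeq2 size factors, and 3391 and 8755 with library totals). With library totals only, Nanog was at 0.04 and Sox2 turned to -0.19, and Nanog also no longer passed without replicate 2, 3 or 4 (0.43, 0.42 and 0.47) or with DESeq2 size factors (0.47). Relative to the median gene, Sox2 was between 0.26 and 0.43, Nanog between 0.44 and 0.66 and Pou5f1 between 1.06 and 1.27 over the 13 settings, so that their order held.

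The next question was whether the levels differed between labeling times. Every library here was labeled, so that an effect of labeling itself could not be tested. The paper tested that in whole cells against unlabeled ones. In replicates 3 and 4, 20 min was at 500 µM and, by the labels, 60 and 120 min were at 100 µM. Time and dose therefore cannot be told apart there. None of the 3 genes was called in any of 12 comparisons of labeling times within replicates (4 preparations, 60 against 20 and 120 against 20 min in replicates 3 and 4, 120 against 60 min in replicates 5 and 6). Log2 fold changes ran from -0.27 to 0.60 for Pou5f1, from -0.56 to 0.12 for Sox2 and from -0.35 to 0.17 for Nanog, and the lowest edgeR adjusted p was 0.196, 0.160 and 0.310. Whole-cell values at 120 against 60 min were -0.27 for Pou5f1, 0.12 for Sox2 and 0.17 for Nanog, and -0.48, 0.07 and 0.29 without replicate 6, where a single library stood for each time and none of the 3 was called. The share of all genes called was also low, at 2.91% (nucleus), 1.04% (cytosol), 0.0741% (membrane fraction) and 0.113% (whole cells) for 120 against 20 min, and 0 in the other 8 comparisons by edgeR (65 to 3454 genes at an unadjusted p under 0.05). DESeq2 called 227 genes in 1 of those 8, nuclear 60 against 20 min, 1 gene in another, membrane 60 against 20 min, and 0 in the other 6. For nuclear 60 against 20 min edgeR called 1359 genes without replicate 3.

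The value of 0.60 was that of nuclear Pou5f1 at 60 against 20 min, with n = 2 a time. It passed with the replicate number as a block (0.58, edgeR adjusted p = 0.0492), with no filter on low counts (0.58, edgeR adjusted p = 0.0495) and without replicate 3 (0.67, edgeR adjusted p = 0.0268). Whether the change from 20 to 120 min differed between nucleus and cytosol was tested as an interaction, in which 0 of 18902 genes were called by edgeR (1420 at an unadjusted p under 0.05) and 10 by DESeq2. The Pou5f1 difference was 0.39 on the log2 scale (edgeR adjusted p = 0.770).

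The share of new RNA was taken as T2C over T counts in reads of a gene, divided by the conversion rate of the library. It differed sharply between the 3 mRNAs. After 120 min, the nuclear share in replicates 5 and 6 was 0.811 and 0.757 for Sox2, 0.622 and 0.593 for Nanog, and 0.0901 and 0.0825 for Pou5f1. Sox2 and Nanog were thus mostly new, and Pou5f1 was mostly old, with no overlap between genes.

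In the nucleus, Sox2 was new at shares of 0.278 and 0.189 after 15 min (replicates 1 and 2). After 20 min it was at 0.255 and 0.318 in replicates 1 and 2 and at 0.461 and 0.353 in replicates 3 and 4. It was at 0.360 and 0.389 after 30 min, and at 0.373 and 0.326 after 40 min. The 20 min libraries of replicates 3 and 4 thus reached the level of the 30 and 40 min libraries. After 60 min the shares were 0.495 and 0.325 in replicates 3 and 4 and 0.488 and 0.463 in replicates 5 and 6.

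In the cytosol Sox2 followed a steadier course. Its shares were 0.125 and 0.108 after 15 min, 0.144, 0.178, 0.168 and 0.158 after 20 min, and 0.245 and 0.253 after 30 min. They were 0.310 and 0.257 after 40 min, 0.454, 0.411, 0.605 and 0.553 after 60 min, and 0.875 and 0.908 after 120 min. The times did not overlap, and after 60 min replicates 5 and 6 were above replicates 3 and 4. At 120 min the cytosolic share exceeded the nuclear share in both replicates.

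Nuclear Nanog was at 0.133 and 0.0985 after 15 min, at 0.165, 0.193, 0.465 and 0.302 after 20 min, and at 0.251 and 0.274 after 30 min. It was at 0.277 and 0.278 after 40 min and at 0.468, 0.263, 0.362 and 0.323 after 60 min. Both nuclear libraries of replicates 3 and 4 at 20 min were above those of 30 min. Cytosolic Nanog rose from 0.0515 and 0.0331 after 15 min over 0.115 and 0.105 after 30 min to 0.655 and 0.629 after 120 min, with 0.238, 0.201, 0.366 and 0.322 after 60 min.

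Pou5f1 gained label slowly in both compartments. Its mean nuclear share was 0.0163 after 15 min, 0.0377 after 30 min, 0.0554 after 40 min and 0.0863 after 120 min (n = 2 each), and it was 0.0405 after 20 min and 0.0684 after 60 min (n = 4 each). The order of times was not even, since replicates 3 and 4 at 20 min (0.0705 and 0.0465) were above 30 min and 1 library of 60 min (0.101) was above both of 120 min. In the cytosol the shares were 0.0171 and 0.0130 after 15 min and 0.0146 and 0.0140 after 30 min, and these did not differ beyond the spread of the replicates. They were 0.0213 and 0.0191 after 40 min and 0.0712 and 0.0700 after 120 min. The early values are low, and the background of the method was not measured, since no unlabeled library was used. As a stand-in for it, the 1st percentile of T2C over T at 15 min was taken over genes with many T positions. It averaged 0.0164% for nuclear and 0.0134% for cytosolic libraries, and Pou5f1 was at 0.0315% to 0.0398% there. How far background enters these early values is not known. Where an alternative below subtracts background, it subtracts this stand-in. No background was subtracted in the shares given here.

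**Figure D2:**
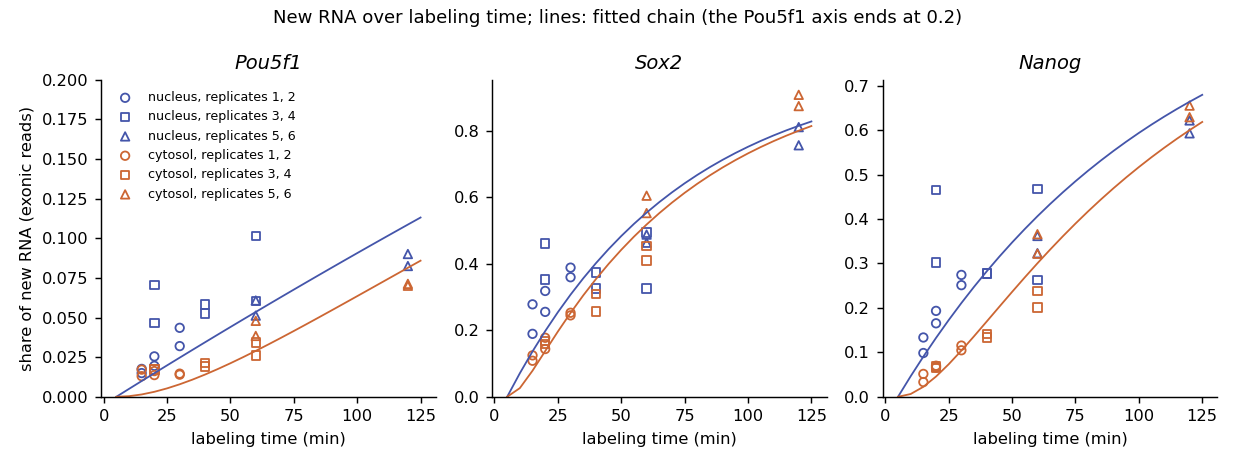
Share of new RNA in exonic reads (vertical axis, separate scale for each gene) against labeling time in min, for nuclear (blue) and cytosolic (orange) libraries, with symbols for the replicate sets and lines for the fitted chain of a nuclear and a cytosolic step. Sox2 reaches 0.908 and Nanog 0.655 in the cytosol at 120 min, while Pou5f1 stays below 0.102 in every library shown.

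Genes of 1 library share its conversion rate, so that the rate cancels when 2 genes are compared. In the nucleus the Sox2 share was 8.47-fold that of Pou5f1 and the Nanog share 6.18-fold, each higher in 16 of 16 libraries. The folds were 11.6 and 5.63 in cytosolic, 12.3 and 5.10 in membrane, and 11.6 and 6.61 in whole-cell libraries, again in 16 of 16 libraries. An exact paired permutation test over the 16 cultures gave an adjusted p = 3.33e-05 in each of these 8 comparisons, from the smallest p that 16 pairs allow (3.05e-05, two-sided, adjusted over 12 comparisons of genes). Without the 2 whole-cell libraries of replicate 6, the log2 differences in whole cells were 3.54 and 2.69 (n = 14), against 3.54 and 2.73 with them.

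Sox2 and Nanog were closer to each other. Sox2 was above Nanog 1.37-fold in the nucleus, in 15 of 16 libraries (exact permutation test, adjusted p = 6.10e-05), and 2.07-fold in cytosolic, 2.42-fold in membrane and 1.76-fold in whole-cell libraries, in 16 of 16 libraries each. Without replicate 6 the whole-cell log2 difference was 0.85, against 0.82 with it. Within the nuclear libraries of replicates 3 and 4 the log2 difference was 0.21 and held in 5 of 6 libraries, where 6 pairs allow no p below 0.0312.

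Against the median of 11575 genes with at least 400 exonic T counts in all 64 libraries, nuclear shares of Sox2 were 3.82 ± 2.37-fold, those of Nanog 2.61 ± 1.18-fold and those of Pou5f1 0.399 ± 0.144-fold (SD, n = 16). The cytosolic ratios were 5.84 ± 2.28 for Sox2, 2.66 ± 0.694 for Nanog and 0.507 ± 0.265 for Pou5f1 (SD, n = 16). Sox2 was thus at a median percentile of 95.3 (nucleus) and 95.8 (cytosol), Nanog at 88.9 and 82.6, and Pou5f1 at 13.1 and 23.8. Membrane libraries gave 6.50, 2.45 and 0.520, and whole cells 4.97, 2.68 and 0.404, or 5.36, 2.85 and 0.434 without replicate 6 (n = 14).

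These ratios differed between labeling times. The 15 and 30 min libraries were of replicates 1 and 2 at 500 µM. Those of 120 min were of replicates 5 and 6, at 100 µM by the labels. Time, replicate set and dose therefore cannot be told apart here. Nuclear Sox2 was at 8.61-fold the median gene after 15 min and at 1.83-fold after 120 min, and nuclear Nanog went from 4.30-fold to 1.42-fold. In the cytosol Sox2 was at 7.48-fold after 15 min, 8.34-fold after 30 min and 2.41-fold after 120 min, and Nanog at 2.65-fold, 3.68-fold and 1.74-fold. Both were highest at 30 min in the mean. Pou5f1 was further below the median gene after 120 min than after 15 min. Its ratios were 0.201 against 0.610 in the nucleus and 0.191 against 0.957 in the cytosol. In the cytosol after 15 min, the median share was 0.0158 and that of Pou5f1 0.0151. Its T2C over T was then 2.65 and 2.35 times the stand-in for background, and in the nucleus 2.36 and 2.43 times. The first ratios in both compartments can therefore not be read as turnover, and the means of Pou5f1 over all times include such early libraries. After 120 min its nuclear share was at the 0.644th percentile of all genes measured.

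**Figure D3:**
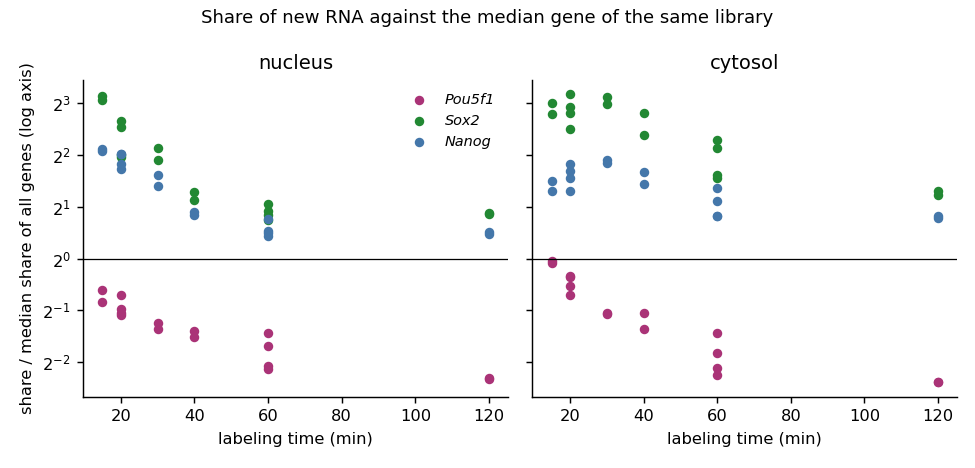
Share of new RNA over the median share of all genes in the same library (vertical axis, log scale) against labeling time in min, with a point for each of 16 nuclear and 16 cytosolic libraries and a line at the median gene. Sox2 and Nanog stay above the line and are on average nearest to it at 60 and 120 min. Pou5f1 stays below it and is on average furthest from it at 60 and 120 min. Replicate sets and doses differ between times.

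New RNA was then compared between compartments of 1 culture. The share was higher in the nucleus than in the cytosol for Pou5f1 by 0.89 ± 0.63 on the log2 scale in 16 of 16 cultures (SD, exact paired permutation test, adjusted p = 8.14e-05), for Nanog by 1.02 ± 0.82 in 13 of 16 (exact permutation test, adjusted p = 0.000916) and for Sox2 by 0.43 ± 0.58 in 11 of 16 (exact permutation test, adjusted p = 0.0146). p-values were adjusted over 8 comparisons of this kind. Sox2 no longer passed without replicate 1 (0.33, exact permutation test, adjusted p = 0.100) or replicate 2 (0.35, exact permutation test, adjusted p = 0.0892). The difference varied between the replicate sets, which also differ in labeling time. In replicates 1 and 2 it was 0.66 for Pou5f1, 1.36 for Nanog and 0.80 for Sox2 in 6 of 6 cultures each. In replicates 3 and 4 it was 1.48, 1.39 and 0.50, higher in 6, 6 and 5 of 6 cultures. In replicates 5 and 6, labeled for 60 and 120 min, it was 0.33 for Pou5f1 (4 of 4), -0.04 for Nanog (1 of 4) and -0.23 for Sox2 (0 of 4), where 4 pairs allow no p below 0.125.

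The median share of all genes was also higher in the nucleus, and relative to it the direction was the opposite. The nuclear against cytosolic difference was then -0.24 for Pou5f1 (exact permutation test, adjusted p = 0.0135), -0.72 for Sox2 (exact permutation test, adjusted p = 0.000854) and -0.12 for Nanog (exact permutation test, adjusted p = 0.330). Sox2 and Pou5f1 thus had smaller gaps between nucleus and cytosol than the median gene, and Sox2 lay further from it. The Pou5f1 value includes early shares, in which the part of background is not known.

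Between membrane fraction and cytosol the shares were close. The log2 difference was -0.04 ± 0.15 for Pou5f1 (exact permutation test, adjusted p = 0.340), 0.04 ± 0.20 for Sox2 (exact permutation test, adjusted p = 0.395) and -0.18 ± 0.26 for Nanog, which was lower in the membrane fraction in 12 of 16 cultures (exact permutation test, adjusted p = 0.0146). The Nanog difference was -0.38, 0.03 and -0.22 within replicates 1 and 2, 3 and 4, and 5 and 6, and without replicate 1 it was -0.09 (exact permutation test, adjusted p = 0.100). Divided by the median gene the values were 0.05 for Pou5f1, 0.13 for Sox2 and -0.10 for Nanog.

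Introns of Pou5f1 and Nanog give the label of RNA that is not yet spliced. The nuclear intronic share of Nanog was 0.643 and 0.592 after 15 min and between 0.835 and 1.07 after 20 min. That of Pou5f1 was 0.0919 and 0.155 after 15 min, between 0.355 and 0.616 after 20 min, and 0.951 and 0.988 after 40 min. Intronic RNA of Nanog was thus mostly new at the earliest time, and that of Pou5f1 became so between 20 and 40 min. Nanog intronic shares went above 1, to means of 1.20 after 40 min and 1.11 after 60 min, and the cause was not tested. Shares are a ratio to the conversion rate of the library and have no upper bound at 1. Intronic T counts were between 11568 and 81285 for Pou5f1.

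In the same nuclear libraries, the intronic share was 12.9-fold the exonic share for Pou5f1 and 3.46-fold for Nanog, higher in 16 of 16 libraries for both (log2 differences of 3.69 ± 0.56 and 1.79 ± 0.59, exact paired permutation test, adjusted p = 8.14e-05 each). Divided by the median gene, the Pou5f1 difference was 1.75 and the Nanog difference -0.18. Introns of Pou5f1 were at 1.31 ± 0.360-fold the median intronic share of 11117 genes and those of Nanog at 2.39 ± 1.26-fold (SD, n = 16). In these means Pou5f1 was above the median gene in its introns and below it in its exons. Its intronic ratio was below 1 in the mean of the 15 min libraries (0.934) and of the 120 min libraries (0.893).

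**Figure D4:**
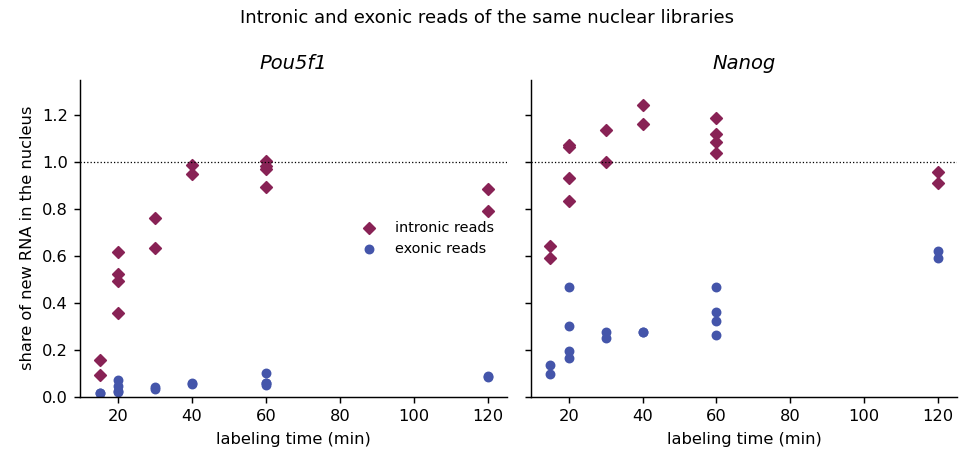
Share of new RNA (vertical axis) in intronic and exonic reads of Pou5f1 and Nanog in 16 nuclear libraries against labeling time in min, with a dotted line at a share of 1. Intronic shares of both genes come close to 1, while exonic shares of Pou5f1 stay at or below 0.101.

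The exons of a gene were not labeled evenly. In nuclear libraries of 15 and 20 min, the first exon of Nanog (chr6:122707568-122707933) had a mean share of 0.150 and the last exon (chr6:122713142-122714633, which holds both windows shown above) one of 0.253. The last exon was higher in 6 of 6 libraries, with a median ratio of 1.87. For Pou5f1 the first exon (chr17:35506018-35506483) was at 0.0229 and the last (chr17:35510288-35510772) at 0.0396, again higher in 6 of 6 libraries, with a median ratio of 1.96. The median ratio was 1.10 for Nanog and 1.18 for Pou5f1 at 120 min. Over all times the last exon was higher in 16 of 16 nuclear libraries for both genes.

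A chain with a nuclear step and a cytosolic step, each of first order and with a delay of 5 min, was fitted to the mean nuclear and cytosolic shares at each labeling time of the 16 cultures, with rates limited to between 0.001 and 2 per min. The apparent half-life of the nuclear step was 47.2 ± 3.01 min for Sox2 and 73.1 ± 4.57 min for Nanog (jackknife SE over 6 replicates), against 134 min for the median gene. Replicate numbers cover different labeling times, so that these SEs are not errors over like replicates. They do not cover the spread between sets. Replicates 1 and 2, 3 and 4, and 5 and 6 alone gave 33.3, 56.8 and 47.6 min for Sox2. For Nanog these sets gave 55.7, 66.0 and 84.5 min. For Pou5f1 the fit ended at the longest half-life allowed, 693 min, as for 1.12% of 11575 genes, so that no value can be given beyond a slow nuclear step. The cytosolic step had apparent half-lives of 3.50 ± 0.583 min for Sox2, 11.7 ± 2.19 min for Nanog and 21.1 ± 2.61 min for Pou5f1, with 15.8 min for the median gene.

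The half-lives rose in the order Sox2, Nanog, Pou5f1 for both steps in this fit, in which the nuclear rate of Pou5f1 was at its limit. In replicates 1 and 2 alone, the cytosolic step was shorter for Pou5f1 (8.97 min) than for Nanog (13.4 min). The chain allows no cytosolic share above the nuclear share, whereas Sox2 had one in every culture of replicates 5 and 6. Nanog had one at 120 min in replicates 5 (0.655 against 0.622) and 6 (0.629 against 0.593). It also had one at 60 min in replicate 5 (0.366 against 0.362). The root mean square residual in share was 0.0752 for Sox2, 0.0544 for Nanog and 0.0148 for Pou5f1. Sizes depended on the model. With an intron step before the nuclear step, the intron half-life was 15.3 min for Pou5f1 and 4.76 min for Nanog, and the nuclear step of Pou5f1 came to 588 min. With 1 conversion rate for all fractions of a culture it came to 637 min. Over the alternatives run, the cytosolic step ranged from 0.347 min, the shortest allowed, to 10.7 min for Sox2, from 0.347 to 23.7 min for Nanog and from 8.97 to 36.5 min for Pou5f1, and the nuclear step of Pou5f1 came down to 409 min in replicates 3 and 4 alone.

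The 3 genes were next placed among all genes by their labeling course, as the root mean square difference of log2 ratios to the median gene over 32 nuclear and cytosolic libraries. Nearest to Sox2 were Zfp36l1 (0.172), Mycn (0.241), Klf2 (0.245), Klf4 (0.248) and Sertad2 (0.253), where the median gene was at 2.47. Zfp36l1 encodes a protein that binds AU-rich elements, and Mycn, Klf2 and Klf4 encode transcription factors. Nearest to Nanog were Gna13 (0.227), Hmox1 (0.246), Rest (0.260), Uhmk1 (0.268) and Cdyl (0.269), with the median gene at 1.74. Rest encodes a repressor of neuronal genes and Cdyl a chromatin protein.

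Among the nearest to Pou5f1 were Rplp2 (0.205), Rpl14 (0.223) and Rpl19 (0.234), which encode ribosomal proteins, and Dppa5a (0.236), a gene specific to early embryonic and stem cells. The median gene was at 1.78.

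Genes that encode partners and targets of the core factors were listed, 26 in number, and 25 had enough T counts for shares. Of these, 19 were above the median gene in nuclear share and 20 in cytosolic share, and the median nuclear ratio was 1.67 and the median cytosolic ratio 2.24, against 1 by definition for all genes. The highest nuclear ratios were those of Tbx3 (3.79), Fgf4 (3.70) and Klf2 (3.59), beside 3.82 for Sox2. Fgf4 encodes a growth factor and is a known target of POU5F1 and SOX2 together. The lowest were those of Dppa5a (0.393), Dppa4 (0.549) and Trim28 (0.670), beside 0.399 for Pou5f1.

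In the cytosol Fgf4 (10.4), Tbx3 (6.66) and Klf2 (6.62) led, above Sox2. Pou5f1 and Dppa5a were the 2 lowest of the factors and the 25 partners in the nucleus. In the cytosol Trim28 (0.462) and Dppa4 (0.503) were below Pou5f1 (0.507) and Dppa5a (0.514). Of 19 other POU and Sox genes 10 could be measured, with median ratios of 1.91 (nucleus) and 3.28 (cytosol), from Sox15 at 1.30 to Sox21 at 3.66 in the nucleus. All 10 were above the median gene in both.

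**Figure D5:**
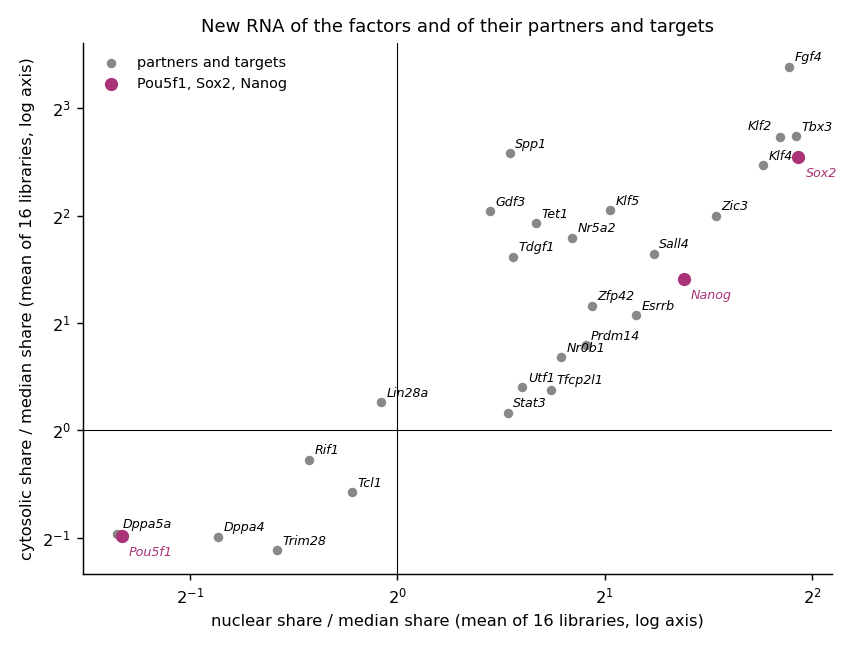
Nuclear (horizontal axis) and cytosolic (vertical axis) share of new RNA over the median share of all genes, both on log axes and as means of 16 libraries, for 25 partners and targets in grey and the 3 factors in purple, with lines at the median gene. Sox2 (3.82 and 5.84) lies beside Klf2, Tbx3 and Klf4, and Pou5f1 (0.399 and 0.507) beside Dppa5a.

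In level with TMM scaling, 7 of the 26 partners were called higher and 9 lower in the nucleus than in the cytosol, beside 37.4% and 30.2% of all genes tested. Their median log2 fold change was -0.29, against 0.07 for all genes. The highest were Spp1, Fgf4 (1.79) and Tet1 (1.73), and the lowest Tcl1 (-1.70), Lin28a (-1.48) and Dppa5a (-1.23). Pou5f1, at -1.80, was below all 26. Between membrane fraction and cytosol 5 of the 26 were called higher and 4 lower, beside 24.1% and 11.5% of all genes, and these 5 were Spp1 (5.31), Lefty1 (3.51), Gdf3 (3.40), Tdgf1 (3.27) and Fgf4 (3.09). They encode proteins that are secreted or held at the cell surface. The 3 factors, which encode nuclear proteins, were below 0, as were the medians of all genes (-0.12) and of the partners (-0.21). Of the other POU and Sox genes 16 were tested, 4 higher and 5 lower in the nucleus than in the cytosol, and of 13 primed, lineage or neural markers tested 2 were higher and 4 lower, again beside 37.4% and 30.2% of all genes.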

How the data were processed

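Poly(A) RNA of 72 libraries (18 cultures, 4 preparations) was analysed. Per the labels and the methods, the authors aligned reads with STAR 2.7.6 to GRCm38 and deposited raw counts per gene (HTSeq 0.11.1, Gencode M14). Their other deposited tables hold T and T2C counts, the conversion rate of each library as a fraction, and the ratio of T2C to T divided by it, which was recomputed here. Intervals were not taken from reads, which carry no molecular identifiers, and errors are spreads over replicates. Between 30.4% and 48.8% of reads fell on no gene and were left out.

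Levels of all 72 libraries were tested with edgeR 4.0.16 (R 4.3.3, filterByExpr, TMM, quasi-likelihood, 1 group per preparation, time and replicate set, Benjamini-Hochberg over all genes), with DESeq2 1.42.0 as an alternative. TPM values used annotated exon lengths. Shares were compared on log2(share + 0.001) by exact sign-flip permutation over cultures (65536 patterns), with Python. Preparations of 1 culture come from the same plate and were paired by design, and the median correlation of their deviations over genes was between 0.0499 and 0.129. Ratios of CPM added 0.5 and used genes over 1.5 TPM. Scripts were tested on simulated data. The 3 genes, the gene lists and the tests were chosen with earlier results of these data known. Named besides them were the 5 nearest genes in labeling course (of which 1 is not reported here), the 3 highest and lowest of each list, and genes named after their values were seen (Lefty1, Gdf3 and Tdgf1).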

Additional observations from a re-analysis of the deposited data

Results flagged for a closer look

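Nuclear Nanog after 60 min had a library apart from the others. It stood at 510 TPM in replicate 5, against 761, 783 and 763 in replicates 3, 4 and 6. This was 1 of 78 groups of 4 libraries examined, where chance gives about 1 in 20. In CPM the same library, at 646, lay between the others, which were at 536, 571 and 741.

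The difference in Sox2 share between nucleus and cytosol ran in opposite directions in replicate sets. It was 0.80 on the log2 scale in replicates 1 and 2, higher in the nucleus in 6 of 6 cultures, and -0.23 in replicates 5 and 6, lower in 4 of 4. The difference between the sets was not tested, and the sets differ in labeling time.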

How the results depend on the processing

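Shares between genes kept their direction and their calls under the alternatives run for them. The ratios to the median gene had no test, and 126 of 126 stayed within 1 SD of the main mean. That SD spans all labeling times and is wide, so that this was a loose criterion. Of all alternatives, a single conversion rate per culture, a subtracted background, the left-out libraries named above and library totals only were chosen after seeing the data. Levels at the fold threshold did not keep their calls. For membrane against cytosol, DESeq2 size factors, no filter, DESeq2 and library totals gave log2 fold changes of -0.51, -0.52, -0.51 and -0.78 for Nanog and of -0.53, -0.54, -0.53 and -0.80 for Pou5f1, the replicate block gave -0.51 for Pou5f1, and library totals gave -0.60 for Sox2. For membrane against nucleus, Nanog was at 0.47 with DESeq2 size factors, 0.47 with DESeq2 and 0.038 with library totals, and Sox2 at -0.19 with library totals. Sox2 in the nucleus against the cytosol was at -0.41 with library totals. Leaving out 1 replicate at a time gave -0.68 to -0.46 for Nanog and -0.69 to -0.48 for Pou5f1 in membrane against cytosol, 0.42 to 0.70 for Nanog in membrane against nucleus, and -0.79 to -0.48 for Sox2 in nucleus against cytosol.

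Over labeling time, nuclear Pou5f1 at 60 against 20 min was at 0.58 with no filter and 0.58 with the replicate block, and at 0.42 to 0.67 without 1 replicate at a time. Values near 0 changed sign without 1 replicate, with ranges of -0.050 to 0.0027 for Nanog and -0.47 to 0.055 for Sox2 in the nucleus, -0.12 to 0.033 for Sox2 in the membrane fraction (each 60 against 20 min), -0.060 to 0.39 for Pou5f1 in whole cells (120 against 20 min), and -0.026 to 0.059 for Nanog and -0.013 to 0.12 for Sox2 in the interaction. In the interaction Nanog was at -0.010 with no filter. Genes called at 120 against 20 min moved from 518 to 975 (DESeq2), 1242 (no filter) and 1803 (replicate block) in the nucleus and from 170 to 275, 436 and 1044 in the cytosol, and to 104 to 565 and 27 to 862 without 1 replicate at a time. At 60 against 20 min in the nucleus they moved from 0 to 227, 956 and 1070, and to 1359 without replicate 3. In the cytosol at 60 against 20 min they moved from 0 to 131 with the replicate block. At 120 against 20 min they moved from 12 to 36, 116 and 46 in the membrane fraction and from 19 to 113, 227 and 31 in whole cells, and in the interaction from 0 to 10, 6 and 14. Genes called in membrane against cytosol moved from 6737 to 11474 with library totals. Replicate numbers were shared between labeling times, but nothing shows that they mark a shared culture.

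In shares, dividing by the median gene gave -0.24, -0.72 and -0.12 for Pou5f1, Sox2 and Nanog in nucleus against cytosol, 0.047, 0.13 and -0.097 in membrane against cytosol, and -0.18 for the Nanog intron against its exons. With 1 conversion rate per culture, membrane against cytosol was at 0.057 for Pou5f1, 0.14 for Sox2 and -0.082 for Nanog, and with the 15 min background subtracted at 0.061 for Pou5f1. Without 1 replicate at a time, the ranges were 0.33 to 0.53 for Sox2 in nucleus against cytosol, and -0.24 to -0.093 for Nanog and -0.0076 to 0.070 for Sox2 in membrane against cytosol. With no replicate block, Sox2 in nucleus against cytosol had an adjusted p = 0.00603 (permutation test), and no call of a share changed. The cause of these changes was not tested.

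Half-lives moved as follows. The nuclear step of Pou5f1 was 679.5 min with the 120 min libraries of replicates 3 and 4, 456 and 409 in replicates 1 and 2 and in 3 and 4 alone, 637 with 1 rate per culture, 588 with an intron step, and 682 to 693 without 1 replicate at a time. That of Sox2 was 51.4 with no delay, 33.3 and 56.8 in these 2 sets alone, and 40.7 with 1 rate per culture. That of Nanog was 79.5 with no delay, 67.8 with a delay of 10 min, 78.6 with the added libraries, 55.7, 66.0 and 84.5 in the 3 sets alone, 64.1 with 1 rate and 65.7 with an intron step. The cytosolic step of Pou5f1 was 25.7 and 17.4 at these delays, 26.3 with the added libraries, 8.97 and 36.5 in replicates 1 and 2 and in 3 and 4, 34.9 with 1 rate, 27.4 with the background subtracted and 13.0 with an intron step. That of Sox2 was 5.69 and 0.347 at these delays, 2.79 with the added libraries, 6.33 in replicates 1 and 2, 0.347 in 5 and 6, and 10.7 with 1 rate. That of Nanog was 23.7 in replicates 3 and 4, 0.347 in 5 and 6, 21.2 with 1 rate and 9.32 with an intron step. A value of 0.347 min is the shortest allowed.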
